A study of Mus musculus with 7 samples.

Results

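Matrix metalloproteinases (MMP), ADAMTS proteases, the ADAMTS-like (ADAMTSL) glycoproteins and the tissue inhibitors of metalloproteinases (TIMP) were compared between whole uteri of 2 mouse genotypes. Genes were taken by their symbols, as every Mmp, Timp, Adamts and Adamtsl gene with a number in its name. This gave 51 of the 24964 listed genes, made up of 23 MMP, 4 TIMP, 19 ADAMTS and 5 ADAMTSL genes. The control group held 3 libraries of genotype Pgrcre/+, numbered 1, 2 and 4. The other group held 4 libraries of genotype Pgrcre/+Foxl2LsL/+, numbered 1 to 4 and called Foxl2LsL here. All 7 came from uteri of 12-week-old mice in diestrus, and every library of both groups carried 1 Pgrcre allele, in which Cre recombinase is made in cells that use the progesterone receptor gene. The labels do not spell out LsL, and they do not say whether each library came from a separate animal, so the p-values measure the spread between these libraries, which may be technical.

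MMPs and ADAMTS proteases are secreted or membrane-bound enzymes that hold a zinc ion in the active site and cut collagens, proteoglycans and other proteins outside the cell. They are made as inactive precursors, and TIMPs block the active enzyme by binding at the zinc. In the uterus they are known for the rebuilding of the stroma over the reproductive cycle, at implantation and after birth. ADAMTSL proteins share the accessory domains of ADAMTS proteases, lack the catalytic domain and are bound in the matrix, several of them at fibrillin microfibrils.

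The active site is printed for 8 proteases that the results turn on, to show what the enzymes share and what the ADAMTSL genes lack. A coding stretch of 33 bases holds the zinc-binding motif. It was found in 23 of 23 MMP and 19 of 19 ADAMTS genes, in 0 of 4 TIMP genes and in 0 of 5 ADAMTSL genes, in coding sequence built from GENCODE M21 on GRCm38. Sequences run 5′ to 3′ on the coding strand, and capitals mark the codons of the 3 zinc-binding histidines and of the catalytic glutamate.
Mmp2, gelatinase A, chr8:92839279-92839311, plus strand, coding exon: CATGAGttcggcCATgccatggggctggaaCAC
Mmp9, gelatinase B, chr2:164951133-164951165, plus strand, coding exon: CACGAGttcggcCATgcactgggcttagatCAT
Mmp3, stromelysin-1, chr9:7449775-7449807, plus strand, coding exon: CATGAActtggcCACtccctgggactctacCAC
Mmp14, membrane-type MMP, chr14:54437627-54437659, plus strand, coding exon: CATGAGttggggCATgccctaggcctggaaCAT
Adamts1, chr16:85799191-85799545, minus strand, split by an intron: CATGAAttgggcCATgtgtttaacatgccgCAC
Adamts4, chr1:171253210-171253915, plus strand, split by an intron: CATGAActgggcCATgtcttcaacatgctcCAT
Adamts7, chr9:90179456-90180640, plus strand, split by an intron: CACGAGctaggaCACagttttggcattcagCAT
Adamts8, chr9:30952721-30953378, plus strand, split by an intron: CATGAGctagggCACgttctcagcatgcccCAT
The stretch lay within 1 exon in 23 of 23 MMP genes and was split across 2 exons in 19 of 19 ADAMTS genes. Mmp2 and Mmp14 shared 27 of the 33 bases, Mmp2 and Mmp9 shared 25, and Adamts1 and Adamts4 shared 27. A pair of 1 MMP and 1 ADAMTS among these 8 shared 17 to 22. Pairs within a family reached into that range, with 20 for Mmp9 and Mmp3 and 19 for Adamts1 and Adamts7.

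Levels are given in FPKM, fragments scaled to gene length and to the size of the library, so levels of different genes are set side by side per length. Library totals recovered from the table were 47800000 to 67300000 fragments. Genes with a mean of at least 1 FPKM over the 7 libraries were tested by limma on log2(FPKM + 1), a scale that understates the change of low genes, and adjusted p-values are Benjamini-Hochberg values over all 13334 genes tested. A gene is said to have risen or fallen where its adjusted p was under 0.05. Foxl2, the gene named in the genotype, was 11.1, 19.3 and 12.9 FPKM in controls 1, 2 and 4 and 12.7, 14.3, 14.8 and 17.2 FPKM in Foxl2LsL libraries 1 to 4 (log2 fold change 0.06, SE 0.18, limma adjusted p = 0.818). The Foxl2 level thus did not separate the groups, and the groups are named by their labels only. Whether transcripts of the Foxl2LsL allele are counted under Foxl2 is not given in the sources used here. Other genes read beside Foxl2 gave both outcomes. The groups did not overlap in 47.6% of all genes tested, so a gene that separates them does not check the labels. Pgr was 24.8 to 39.0 FPKM in the controls and 23.8 to 26.5 FPKM in the Foxl2LsL libraries, with overlap (limma adjusted p = 0.0845). Esr1 was 34.4 to 47.6 and 56.2 to 60.3 FPKM, without overlap (limma adjusted p = 0.00662). Foxl2os, the neighbour of Foxl2 on the opposite strand, was 22.6 to 37.5 FPKM in the controls and 4.72 to 6.75 FPKM in the Foxl2LsL libraries (log2 fold change -2.08, limma adjusted p = 0.000345), and Gt(ROSA)26Sor was 13.3 to 16.2 and 23.2 to 32.7 FPKM (log2 fold change 0.87, limma adjusted p = 0.00181). Control 4 stood apart from the other controls. On a second principal component with 16.7% of the variance it lay at 31.9, against -25.2 and -8.53 for controls 1 and 2, and its stromal markers summed to 614 FPKM against 299 and 380. Values without control 4 are given where the call of an MMP, TIMP, ADAMTS or ADAMTSL gene depends on it.

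Of the 51 genes, 32 passed the filter and 19 did not. In Foxl2LsL uteri 6 of the 32 rose (Mmp9, Timp2, Timp3, Adamts8, Adamtsl1 and Adamtsl5) and 13 fell (Mmp2, Mmp3, Mmp14, Mmp15, Mmp19, Timp1, Adamts1, Adamts4, Adamts7, Adamts9, Adamts14, Adamts15 and Adamts19). Together 19 of 32 passed the threshold, beside 40.6% of all genes tested. For genes that rose the figure over all genes was 16.7%, and for genes that fell 23.9%. The change was at least 2-fold on this scale in 2 that rose (3.62% of all genes tested) and in 7 that fell (4.16%). The median log2 fold change was -0.30 over the 32 genes and -0.05 over all genes tested. The groups did not overlap in 19 of the 32, beside 47.6% of all genes tested. Without control 4, 19 genes passed the threshold again, 16 of them among the first 19.

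**Figure D1:**
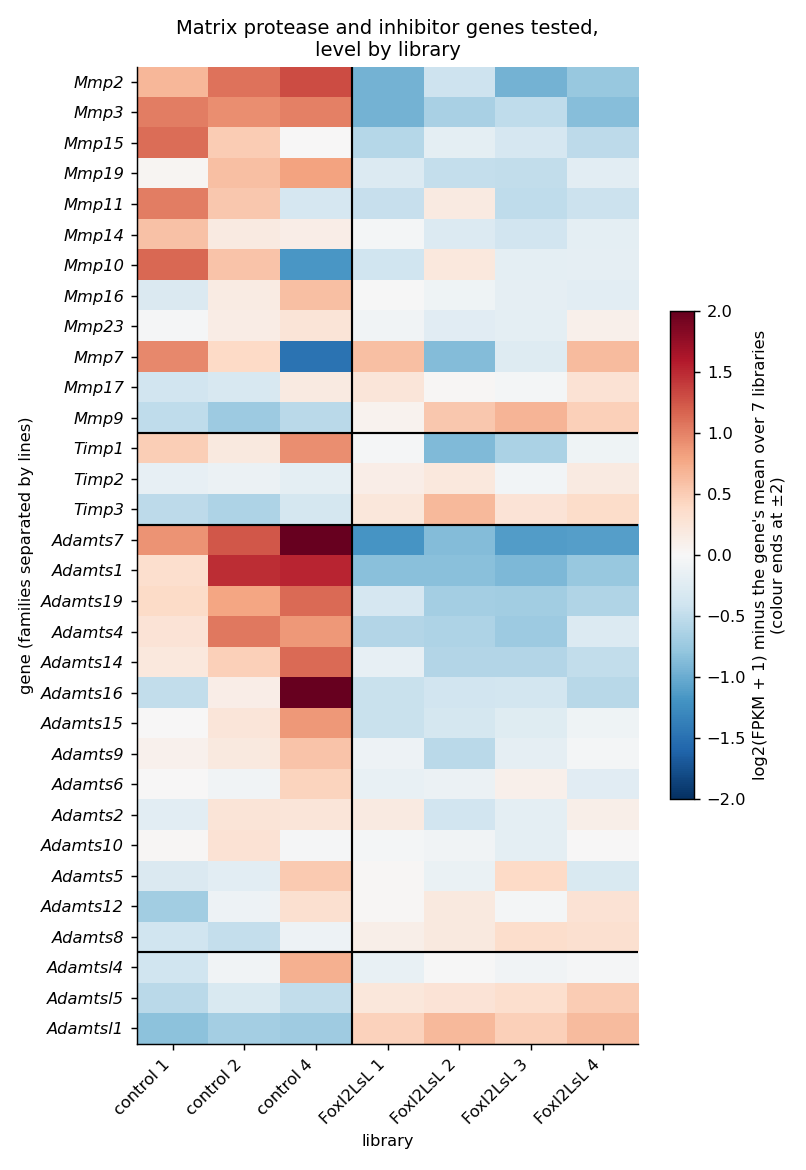
Level of the 32 tested MMP, TIMP, ADAMTS and ADAMTSL genes (rows) in the 7 libraries (columns), coloured by log2(FPKM + 1) minus the mean of the gene over the 7 libraries. Colour ends at 2 above or below the mean, the controls and the Foxl2LsL libraries stand on opposite sides of the mean for Adamts7 and Adamtsl1, and control 4 departs from the other controls in Mmp7, Mmp10 and Adamts16.

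Among the MMPs, 1 of 12 tested genes rose, 5 fell and 6 did not pass the threshold. Of all genes tested 16.7% rose and 23.9% fell. Mmp2 encodes gelatinase A, which cleaves denatured collagen and collagen IV. Mmp2 was 86.6, 116 and 136 FPKM in the controls and 27.5, 40.3, 27.6 and 31.6 FPKM in the Foxl2LsL libraries. Every Foxl2LsL library lay below the lowest control, and the mean was 113 ± 24.9 (SD, n = 3) against 31.8 ± 5.99 (SD, n = 4), with a log2 fold change of -1.79 (SE 0.18, limma adjusted p = 0.000567). Mmp3, which encodes stromelysin-1, an enzyme that cuts proteoglycans and activates other MMPs, was 6.35, 5.89 and 6.32 FPKM in the controls and 0.882, 1.33, 1.54 and 1.004 FPKM in the Foxl2LsL libraries. The controls were close together and none came near a Foxl2LsL library. The log2 fold change of Mmp3 was -1.72 (SE 0.12, limma adjusted p = 0.000163).

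Mmp9 moved the other way from Mmp2, the other gelatinase gene. It was 1.29, 0.974 and 1.26 FPKM in the controls and 2.45, 3.75, 4.26 and 3.54 FPKM in the Foxl2LsL libraries, so the groups did not overlap. Its log2 fold change was 1.04 (SE 0.15, limma adjusted p = 0.00198). In these bulk samples more cells of a type and more RNA per cell cannot be told apart, and the same holds for falls. Mmp9 is a known product of neutrophils and macrophages. Of 6 macrophage markers, Csf1r and Mrc1 rose and none fell, and the 6 summed to 53.7 to 72.0 FPKM in controls and 75.6 to 109 FPKM in Foxl2LsL libraries. The neutrophil markers S100a8 and S100a9 were below 0.5 FPKM in every library and below the filter. The sum of 10 neutrophil markers was 34.2 to 220 FPKM in controls and 453 to 1077 FPKM in Foxl2LsL libraries, nearly all of it from Ltf (lactoferrin), which uterine epithelium also makes. The part of these cells in the Mmp9 result was not tested.

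The membrane-bound MMPs cut matrix at the cell surface. Mmp14 encodes the membrane-type enzyme that activates the Mmp2 precursor with the help of Timp2. It was the gene with the highest control mean of the 51, with 167, 127 and 121 FPKM in the controls and 108, 91.7, 84.7 and 97.2 FPKM in the Foxl2LsL libraries. The groups did not overlap, with a log2 fold change of -0.52 (SE 0.13, limma adjusted p = 0.0163). Mmp15, another transmembrane MMP gene, fell from 17.7 ± 7.14 (SD, n = 3) to 8.24 ± 1.10 FPKM (SD, n = 4), which was -0.95 on the log2 scale (SE 0.24, limma adjusted p = 0.0155). Mmp17, which encodes a lipid-anchored MMP, had a log2 fold change of 0.30 (limma adjusted p = 0.158). Without control 4 it was 0.47 (limma adjusted p = 0.0173). Mmp16, a transmembrane MMP gene and the lowest MMP gene inside the filter with a mean of 1.08 FPKM, had a log2 fold change of -0.27 (limma adjusted p = 0.311). Without control 1 it was -0.50 (limma adjusted p = 0.0461). Mmp23, whose product is tethered in the membrane until cleaved, stayed between 33.6 and 47.1 FPKM in all 7 libraries, with a log2 fold change of -0.22 (limma adjusted p = 0.131). Its groups overlapped.

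Mmp11 encodes stromelysin-3, which furin activates inside the cell and which is known from remodelling stroma. Mmp11 was 54.5, 38.3 and 20.5 FPKM in the controls and 18.7, 29.6, 18.2 and 19.1 FPKM in the Foxl2LsL libraries. Control 4 lay among the Foxl2LsL libraries, and the difference did not pass the threshold (log2 fold change -0.71, SE 0.31, limma adjusted p = 0.106). Without control 4 the log2 fold change was -1.09 (limma adjusted p = 0.00797). The overlap of the groups thus came from control 4 and Foxl2LsL library 2. Mmp19, which encodes a secreted MMP outside the main classes, fell from 9.62 ± 2.76 (SD, n = 3) to 4.79 ± 0.564 FPKM (SD, n = 4), which was -0.85 on the log2 scale (SE 0.18, limma adjusted p = 0.00853).

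Mmp7 and Mmp10 varied widely within the control group. Mmp7 encodes matrilysin, an epithelial MMP without the C-terminal hemopexin domain. It was 7.95, 5.03 and 0.656 FPKM in the controls and 5.995, 1.52, 2.86 and 6.13 FPKM in the Foxl2LsL libraries, with control 4 the lowest of all 7. The log2 fold change was 0.07 (SE 0.61, limma adjusted p = 0.937), and it changed sign without control 4 (-0.65, limma adjusted p = 0.267). Epithelial markers were also lowest in control 4, where 6 of them summed to 534 FPKM, against 805 to 1167 FPKM in the other 6 libraries, and their part in the Mmp7 value was not tested. Mmp10, which encodes stromelysin-2, was likewise lowest in control 4 with 0.562 FPKM, against 6.80 and 4.25 FPKM in controls 1 and 2 and 1.67 to 3.07 FPKM in the Foxl2LsL libraries. Its log2 fold change was -0.33 (limma adjusted p = 0.626). Without control 4 it was -1.004 (limma adjusted p = 0.00867), and without control 1 it was 0.16 (limma adjusted p = 0.807). Mmp13, a collagenase gene, was at 0.011 to 0.057 FPKM in all 7 libraries, far below the filter.

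Mmp3, Mmp7, Mmp10 and Mmp13 belong to a run of 10 MMP genes on chromosome 9, between positions 7272514 and 7699585 on GRCm38. Of these 10, 3 passed the filter (Mmp3, Mmp7 and Mmp10), and Mmp1a and Mmp1b were at 0 in every library. Promoter windows of 300 bases (250 before to 50 after the start; RefSeq, GRCm38.p6) matched 36 of the 51 genes in 39 windows. They were searched on both strands for the AP-1 motif TGANTCA, the TATA box TATAAA and the forkhead core GTAAACA, and matches of different motifs overlapped in 0 member windows. AP-1 and the TATA box stood together in 8 of the 39 windows, beside 1.54% of all 32851 windows, and all 8 genes (Mmp1a, Mmp1b, Mmp3, Mmp7, Mmp10, Mmp12, Mmp13 and Mmp20) lay in that run. The 100 bases before the start are printed for the 3 that passed the filter, 5′ to 3′ on the plus strand, with the AP-1 and TATA box matches in capitals.
Mmp3, chr9:7445722-7445821: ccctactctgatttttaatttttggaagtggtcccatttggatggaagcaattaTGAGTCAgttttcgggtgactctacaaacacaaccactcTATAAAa
Mmp7, chr9:7691990-7692089: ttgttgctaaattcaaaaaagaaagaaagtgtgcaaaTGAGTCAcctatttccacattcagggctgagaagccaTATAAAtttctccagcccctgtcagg
Mmp10, chr9:7502242-7502341: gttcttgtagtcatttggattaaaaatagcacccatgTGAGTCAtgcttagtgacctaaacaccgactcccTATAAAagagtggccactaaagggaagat
The start of the AP-1 match lay 39 bases before that of the TATA box in Mmp3, 37 in Mmp7 and 34 in Mmp10. Of these neighbours Mmp3 fell, and Mmp7 and Mmp10 did not pass the threshold. Counted singly, the AP-1 motif was in the same 8 of the 39 windows (7.81% of all windows), the TATA box in 12 (13.6%) and the forkhead core in 3, those of Adamts13, Mmp10 and Mmp13 (3.65%). These matches describe letters in the windows only.

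**Figure D2:**
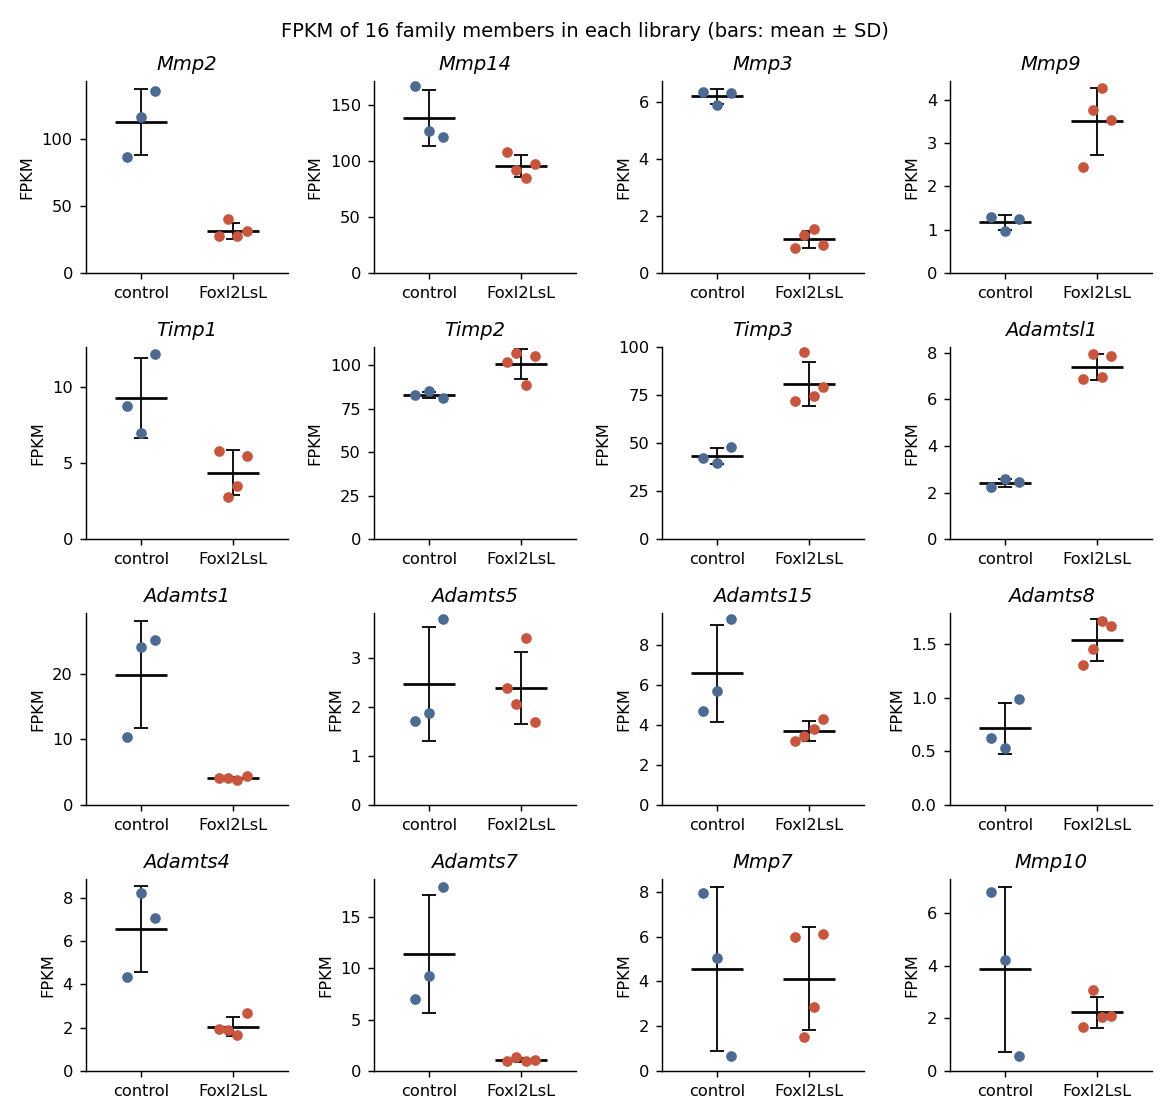
FPKM of 16 of the genes on linear axes that start at 0, with 1 point per library (controls blue, n = 3; Foxl2LsL red, n = 4) and bars for the mean ± SD. Mmp2, Mmp3, Adamts1 and Adamts7 are lower in every Foxl2LsL library than in any control, and Mmp9, Timp3 and Adamtsl1 are higher.

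The TIMP genes did not move together. Timp2 encodes the inhibitor that also serves as the bridge between Mmp14 and the Mmp2 precursor. It was 82.5, 84.8 and 81.0 FPKM in the controls and 102, 107, 88.5 and 105 FPKM in the Foxl2LsL libraries. The groups did not overlap, but the change was small (log2 fold change 0.27, SE 0.08, limma adjusted p = 0.0314). It lost its call when any 1 of 6 libraries was left out, Foxl2LsL library 3 being the exception, with log2 fold changes of 0.24 to 0.29 and limma adjusted p-values of 0.0613 to 0.0808. Timp3 encodes the inhibitor that is bound to the matrix and blocks ADAMTS and ADAM proteases besides MMPs. It was 42.5, 39.7 and 48.1 FPKM in the controls and 72.0, 97.3, 74.7 and 79.6 FPKM in the Foxl2LsL libraries. Each Foxl2LsL library thus lay above every control, with a log2 fold change of 0.88 (SE 0.12, limma adjusted p = 0.00146). Timp3 shares 1733 exon bases with Syn3 on the opposite strand, and without a stated use of strand reads of the pair there cannot be told apart.

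Timp1 fell. It encodes a soluble inhibitor that also forms a complex with the Mmp9 precursor. Timp1 was 8.76, 6.97 and 12.2 FPKM in the controls and 5.83, 2.75, 3.47 and 5.50 FPKM in the Foxl2LsL libraries, without overlap (log2 fold change -0.95, SE 0.25, limma adjusted p = 0.0204). The call was lost without control 4 (-0.76, limma adjusted p = 0.0502) and without Foxl2LsL library 3 (-0.87, limma adjusted p = 0.0573). Timp4 was below the filter, with 0.043, 0.207 and 0.098 FPKM in the controls and 0.078, 0.128, 0.163 and 0.045 FPKM in the Foxl2LsL libraries, and the groups overlapped.

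Among the ADAMTS proteases, 1 of 14 tested genes rose, 7 fell and 6 did not pass the threshold, beside 16.7% and 23.9% of all genes that rose and fell. Several belong to a group known for cutting aggrecan and versican, the large proteoglycans of the matrix. Adamts1, a member of that group whose gene is induced by progesterone in the ovary, was 10.4, 24.1 and 25.1 FPKM in the controls and 4.06, 4.06, 3.87 and 4.35 FPKM in the Foxl2LsL libraries. The Foxl2LsL libraries were nearly equal, and the lowest control, library 1, was still above them all. The log2 fold change of Adamts1 was -1.94 (SE 0.27, limma adjusted p = 0.00159). Adamts4, which encodes aggrecanase-1, was 4.35, 8.23 and 7.07 FPKM in the controls and 1.94, 1.88, 1.68 and 2.66 FPKM in the Foxl2LsL libraries, again without overlap (log2 fold change -1.28, SE 0.20, limma adjusted p = 0.00227). Adamts5, which encodes aggrecanase-2, was 1.72, 1.87 and 3.79 FPKM in the controls and 2.37, 2.05, 3.39 and 1.69 FPKM in the Foxl2LsL libraries. The groups overlapped fully, with a log2 fold change of -0.01 (SE 0.24, limma adjusted p = 0.979), whose sign changed with the scaling, to 0.04 after median centring. Adamts1 and Adamts5 are neighbours on chromosome 16, 53059 bases apart with 0 coding genes between them, and whether their changes differed was not tested.

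Adamts9, Adamts15 and Adamts8 are further members of the proteoglycan-cutting group. Adamts9 was 5.63, 6.18 and 8.34 FPKM in the controls and 4.86, 3.32, 4.55 and 5.07 FPKM in the Foxl2LsL libraries. Its groups did not overlap, but the call was narrow (log2 fold change -0.50, SE 0.16, limma adjusted p = 0.0391) and was lost in 6 of the 7 fits that left out 1 library, with -0.35 without control 4 (limma adjusted p = 0.0938). Adamts15 fell from 6.58 ± 2.42 (SD, n = 3) to 3.69 ± 0.490 FPKM (SD, n = 4), which was -0.65 on the log2 scale (SE 0.20, limma adjusted p = 0.0321). Without control 4 its value was -0.41 (limma adjusted p = 0.0368), and the call was lost without control 2 (-0.72), Foxl2LsL library 1 (-0.60), 2 (-0.63) or 3 (-0.66). Adamts8 rose, the only ADAMTS gene to do so among the 14, from 0.716 ± 0.240 (SD, n = 3) to 1.54 ± 0.193 FPKM (SD, n = 4). On the log2 scale the rise was 0.57 (SE 0.13, limma adjusted p = 0.0105). With a mean of 1.19 FPKM it was the lowest ADAMTS gene inside the filter. It passed the filter through the Foxl2LsL libraries, as its control mean was under 1 FPKM. Adamts8 and Adamts15 lie 20109 bases apart on opposite strands of chromosome 9 with 0 coding genes between them. Adamts8 shares 489 exon bases with the gene model Gm29724.

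Adamts7, which encodes a protease of the cartilage oligomeric matrix protein, had the most negative log2 fold change of the 32 tested genes. It was 7.06, 9.22 and 17.9 FPKM in the controls and 0.920, 1.36, 0.996 and 1.02 FPKM in the Foxl2LsL libraries. The lowest control was thus well above every Foxl2LsL library, and the control mean was 10.6 times the Foxl2LsL mean. The log2 fold change was -2.49 (SE 0.26, limma adjusted p = 0.000637). Adamts12, its close relative, had a log2 fold change of 0.28 (limma adjusted p = 0.356).

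The procollagen-processing members remove the N-terminal propeptide of fibrillar collagens. Adamts14 was 2.03, 2.64 and 4.75 FPKM in the controls and 1.35, 0.75, 0.745 and 0.873 FPKM in the Foxl2LsL libraries, without overlap (log2 fold change -1.06, SE 0.22, limma adjusted p = 0.00833). Its Foxl2LsL mean of 0.930 FPKM was under 1 FPKM, so it passed the filter through the controls. Adamts2, which has the same role, had a log2 fold change of -0.17 (limma adjusted p = 0.461). Adamts3, the remaining gene of this type, was just outside the filter with a mean of 0.771 FPKM. Whether Adamts14 and Adamts2 differed in their change was not tested.

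Adamts19, whose substrate is little known, was 2.81, 4.05 and 5.38 FPKM in the controls and 1.30, 0.822, 0.805 and 0.917 FPKM in the Foxl2LsL libraries. The groups did not overlap, and the log2 fold change was -1.35 (SE 0.18, limma adjusted p = 0.00143). With a Foxl2LsL mean of 0.962 FPKM, Adamts19 also passed the filter of 1 FPKM through the controls. Adamts16 was highest in control 4. It was 0.414, 1.18 and 7.61 FPKM in the controls and 0.347 to 0.533 FPKM in the Foxl2LsL libraries, with control 1 inside the Foxl2LsL range. Its log2 fold change was -1.03 (SE 0.54, limma adjusted p = 0.162), with -1.57 without control 1 (limma adjusted p = 0.0407) and -0.26 without control 4 (limma adjusted p = 0.281). With a Foxl2LsL mean of 0.464 FPKM, Adamts16 passed the filter through the controls, chiefly control 4. The filter used the mean of all 7 libraries also in the fits that left out 1 library. Adamts10, which encodes a protease tied to fibrillin microfibrils, was the most abundant ADAMTS gene in the Foxl2LsL libraries at 20.1 to 23.3 FPKM, with 22.7 to 28.6 FPKM in the controls (log2 fold change -0.17, limma adjusted p = 0.188). Adamts6 had a log2 fold change of -0.22 (limma adjusted p = 0.261).

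The ADAMTSL genes, whose products have no protease domain, gave 2 rises and 0 falls among the 3 tested. That is few genes to set beside the 16.7% of all genes tested that rose and the 23.9% that fell. Adamtsl1, which encodes punctin, was 2.24, 2.58 and 2.48 FPKM in the controls and 6.90, 7.94, 6.95 and 7.85 FPKM in the Foxl2LsL libraries. Both groups were tight and far apart, with a log2 fold change of 1.29 (SE 0.08, limma adjusted p = 0.000135), the highest of the 32 tested genes. Adamtsl5 rose from 2.87 ± 0.331 (SD, n = 3) to 5.67 ± 0.607 FPKM (SD, n = 4), which was 0.79 on the log2 scale (SE 0.10, limma adjusted p = 0.00123). Adamtsl4, a fibrillin-binding member, had a log2 fold change of -0.14 (limma adjusted p = 0.662), which became 0.17 without control 4 (limma adjusted p = 0.259).

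The 19 genes below the filter had means from 0 to 0.831 FPKM. Mmp28, just outside it with the highest of these means, was 0.782, 0.910 and 1.57 FPKM in the controls and 0.463, 0.629, 0.871 and 0.593 FPKM in the Foxl2LsL libraries. A pair of ADAMTSL genes below the filter, singled out after their values were seen, moved in opposite directions when no filter was applied, where 27.6% of all 21011 genes tested passed. Adamtsl3 was 0.173, 0.161 and 0.163 FPKM in the controls and 0.748, 0.902, 0.780 and 0.961 FPKM in the Foxl2LsL libraries (limma adjusted p = 0.000672 with no filter), a ratio of means of 5.12. Adamtsl2 was 0.581, 1.116 and 2.21 FPKM in the controls and 0.207, 0.168, 0.133 and 0.290 FPKM in the Foxl2LsL libraries (limma adjusted p = 0.0252 with no filter). Adamts17 also passed without the filter (limma adjusted p = 0.0158), and its mean went from 0.494 to 0.154 FPKM. Adamts17 was likewise picked out after its values were seen. With no filter, 20 of the 49 genes with any fragment passed by limma, 17 of them among the first 19, beside the 27.6% of all genes tested. By limma-voom on the recovered fragments with no filter, 23 of the 49 passed, beside 28.5% of all genes tested. These 23 included Mmp21, with 0 to 5 fragments (limma-voom adjusted p = 0.0391).

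**Figure D3:**
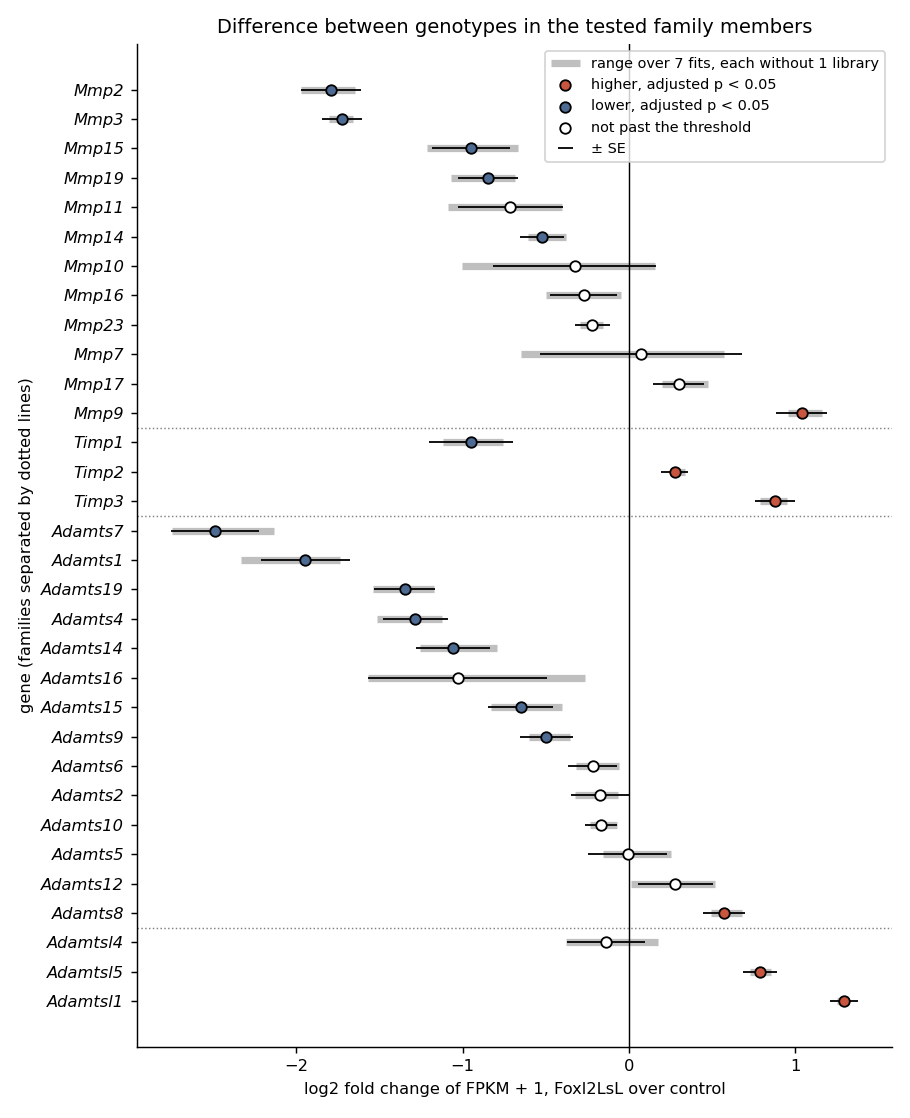
Log2 fold change of FPKM + 1 (Foxl2LsL over control, x axis) of the 32 tested genes by family (y axis), with thin bars for 1 standard error, grey bars for the range over 7 fits that each left out 1 library, and filled points where the limma adjusted p is under 0.05. Adamts7 at -2.49 and Adamtsl1 at 1.29 mark the ends, and the grey bars of Mmp7, Mmp10, Adamts5 and Adamtsl4 cross 0.

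Summed by family, the FPKM of all 23 MMP genes was 406, 374 and 366 in controls 1, 2 and 4 and 222, 225, 195 and 223 in Foxl2LsL libraries 1 to 4. The 4 TIMP genes summed to 134, 132 and 141 FPKM in the controls and 180, 207, 167 and 190 FPKM in the Foxl2LsL libraries. Neither sum overlapped between the groups. The ratio of the TIMP sum to the MMP sum was 0.329, 0.352 and 0.386 in the controls and 0.809, 0.920, 0.857 and 0.851 in the Foxl2LsL libraries, a mean of 0.356 ± 0.0285 (SD, n = 3) against 0.859 ± 0.0461 (SD, n = 4). The MMP sum was carried by Mmp2, Mmp11, Mmp14 and Mmp23, which made up 86.9% of it in the controls and 85.7% in the Foxl2LsL libraries. These sums are transcript levels and say nothing of active enzyme.

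The ADAMTS sum was 76.1, 109 and 133 FPKM in the controls and 60.2, 54.3, 56.0 and 61.9 FPKM in the Foxl2LsL libraries. Adamts10 alone made up 24.7% of it in the controls and 37.8% in the Foxl2LsL libraries. The ADAMTSL sum was 7.91, 10.2 and 13.7 FPKM in the controls and 15.9, 17.7, 16.7 and 18.9 FPKM in the Foxl2LsL libraries. In order of mean level the first 4 of the 51 genes were Mmp14, Mmp2, Timp2 and Timp3 in the controls and Timp2, Mmp14, Timp3 and Mmp23 in the Foxl2LsL libraries. The fourth place was not resolved in either group: Timp3 (43.4 ± 4.26, SD, n = 3) and Mmp23 (43.1 ± 4.21, SD, n = 3) were level in the controls, and Mmp23 (33.6 to 42.5 FPKM) and Mmp2 (27.5 to 40.3 FPKM) overlapped in the Foxl2LsL libraries. Other neighbours were also within each other's spread: in the controls Mmp14 (138 ± 24.9, SD, n = 3) and Mmp2 (113 ± 24.9, SD, n = 3), and in the Foxl2LsL libraries Timp2 (100.6 ± 8.38, SD, n = 4) and Mmp14 (95.3 ± 9.70, SD, n = 4). No test was run on the sums.

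**Figure D4:**
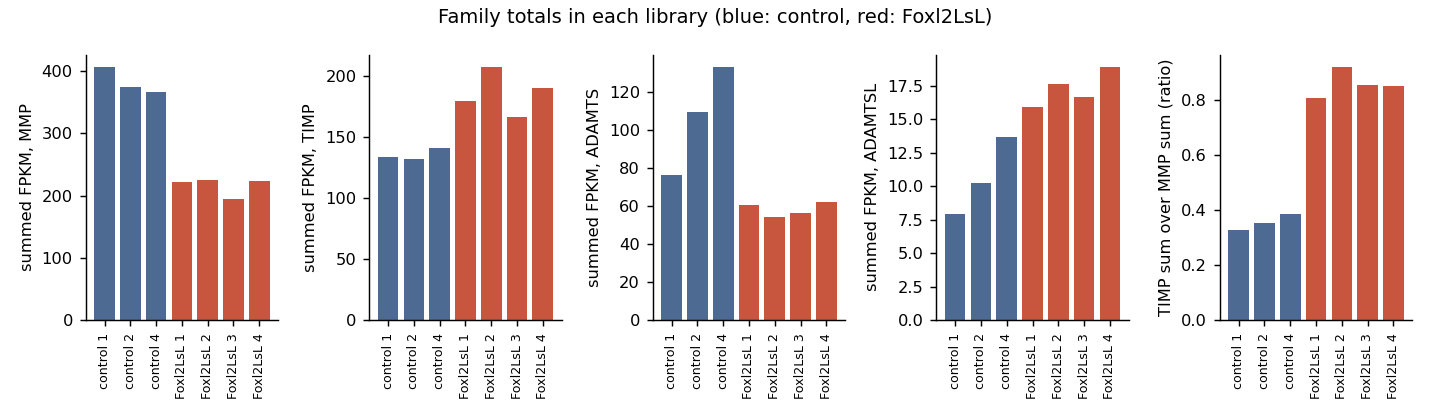
Summed FPKM of the MMP, TIMP, ADAMTS and ADAMTSL genes and the ratio of the TIMP sum to the MMP sum (y axes), with 1 bar per library (controls blue, Foxl2LsL red). The ratio is 0.329 to 0.386 in the controls and 0.809 to 0.920 in the Foxl2LsL libraries.

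Some markers of the cell types in the uterus moved with the groups, and counts of them stand beside the 40.6% of all genes tested that passed. Stromal markers fell in 4 of 6 (Vim, Hoxa10, Hoxa11 and Hand2; Pdgfra and Nr2f2 did not pass the threshold), with a sum of 299 to 614 FPKM in the controls and 219 to 241 FPKM in the Foxl2LsL libraries. Vim lost its call when control 2 or any 1 Foxl2LsL library was left out (limma adjusted p up to 0.0653). Endothelial markers fell in 4 of 5 (Pecam1, Cdh5, Kdr and Emcn), with sums of 95.2 to 132 and 64.4 to 71.0 FPKM. Among 6 smooth muscle markers Myh11 and Tagln rose and none fell, with overlapping sums of 827 to 1643 and 1468 to 1913 FPKM. Without control 4, which had the highest sum of the controls, 6 of 6 rose. Among 6 epithelial markers Krt18 rose and Foxa2 fell, with overlapping sums of 534 to 1098 and 865 to 1167 FPKM, and without control 1 Krt19 rose as well. Of 4 tested mast cell markers Kit rose and none fell, and the 5 markers listed summed to 7.60 to 13.0 FPKM in the controls and 14.8 to 22.9 FPKM in the Foxl2LsL libraries. Without Foxl2LsL library 1, Mcpt4 rose as well. The 9 cell type lists held no marker at 0 in all 7 libraries. Markers of oviduct or ovary summed to 299 FPKM in control 2 and to 6.81 to 25.7 FPKM in the other 6 libraries, and fat cell markers ranged from 0.497 to 265 FPKM over the 7 with no marker past the threshold. No oviduct or ovary marker passed either. The part of these cell types in the values of the MMP, TIMP, ADAMTS and ADAMTSL genes was not tested.

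Genes that act on or beside these proteases were described from 5 lists. Of 11 tested activators and inhibitors, 2 rose and 2 fell. Without control 4, 3 fell, with Lrp2 added (-1.06, limma adjusted p = 0.02004). Without control 1, 3 rose, with Pcsk6 added, and 5 fell, with Lrp2, Pcsk5 and A2m added. The 2 that rose with all libraries were Thsd4 and Papln, which are relatives of the ADAMTSL genes, with log2 fold changes of 1.23 (SE 0.27, limma adjusted p = 0.00945) and 0.78 (SE 0.22, limma adjusted p = 0.0241). Furin, which encodes a convertase that activates MMP and ADAMTS precursors, had a log2 fold change of -0.28 (limma adjusted p = 0.0161), and Spock2, a matrix proteoglycan gene, one of -0.44 (limma adjusted p = 0.0291). Papln lost its call without Foxl2LsL library 1 or 4 and Spock2 without Foxl2LsL library 1, 3 or 4 (limma adjusted p up to 0.0626 and 0.0770). Reck, which encodes a membrane-anchored MMP inhibitor, had -0.15 (limma adjusted p = 0.691). In the plasminogen list 0 of 8 tested genes rose and 3 fell. Plat, which encodes tissue plasminogen activator, was not among them, with 443, 221 and 80.9 FPKM in the controls and 87.1 to 124 FPKM in the Foxl2LsL libraries (log2 fold change -0.84, limma adjusted p = 0.205), but fell without control 4 (-1.49, limma adjusted p = 0.00522). Serpine2, a gene for an inhibitor of plasminogen activators and thrombin, fell from 46.4 ± 9.76 (SD, n = 3) to 12.9 ± 1.007 FPKM (SD, n = 4), which was -1.75 on the log2 scale (limma adjusted p = 0.000276). Plaur, the urokinase receptor gene, fell by 0.98 and S100a10 by 0.40 on the log2 scale. S100a10 kept its call in 1 of 7 fits that left out 1 library, the one without Foxl2LsL library 4.

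Of 12 tested ADAM genes, relatives of the ADAMTS genes, 3 rose and 4 fell. The number that fell was 1 to 4 with 1 library left out, 1 of them without Foxl2LsL library 2 or 3 and 2 without control 2 or Foxl2LsL library 1 or 4. Without control 4, 4 rose (Adam15 added) and 3 fell (Adam8, Adam10 and Adam17). Adam28 had a log2 fold change of 1.56, Adamdec1 of 1.09 and Adam33 of 0.61. Adam12 had a log2 fold change of -1.27, and its controls ranged from 4.43 to 20.5 FPKM. With 1 library left out, the log2 fold change of Adam12 ranged from -1.85 to -0.86, and its call held only without control 1. Adamdec1 lost its call without Foxl2LsL library 2 or 3. Of 10 tested procollagen and other matrix-processing genes, 4 rose and 3 fell. Without control 4 the counts were again 4 and 3, with Pcolce in place of Fap. Pcolce2, which encodes an enhancer of procollagen C-proteinase, rose from 2.37 ± 0.612 (SD, n = 3) to 27.99 ± 6.53 FPKM (SD, n = 4), which was 3.09 on the log2 scale (SE 0.20, limma adjusted p = 0.000131). Loxl2, a collagen cross-linking enzyme gene, had -1.27, Tll1 had 1.09 and Htra1 had -0.90.

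Of 16 tested matrix substrates, 1 rose and 7 fell, and without control 1, 12 fell, with Col1a1, Col3a1, Bgn, Fbn1 and Fbn2 added. Nid1 (nidogen) had a log2 fold change of -2.04 and Vcan (versican, a substrate of Adamts1 and Adamts4) one of -1.85. Col4a2 and Col4a1, chains of basement membrane collagen, had -1.76 and -1.68. Vcan was 4.79, 6.77 and 10.4 FPKM in the controls and 1.23, 0.942, 1.32 and 1.40 FPKM in the Foxl2LsL libraries, without overlap. Dcn (decorin, a small proteoglycan) rose, with 400, 467 and 367 FPKM in the controls and 936, 1034, 922 and 1019 FPKM in the Foxl2LsL libraries, a log2 fold change of 1.25 (SE 0.11, limma adjusted p = 0.000307). Counts in the lists stand beside the 40.6% of all genes tested that passed, and they amount to 4 of 11, 3 of 8, 7 of 12, 7 of 10 and 8 of 16.

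**Figure D5:**
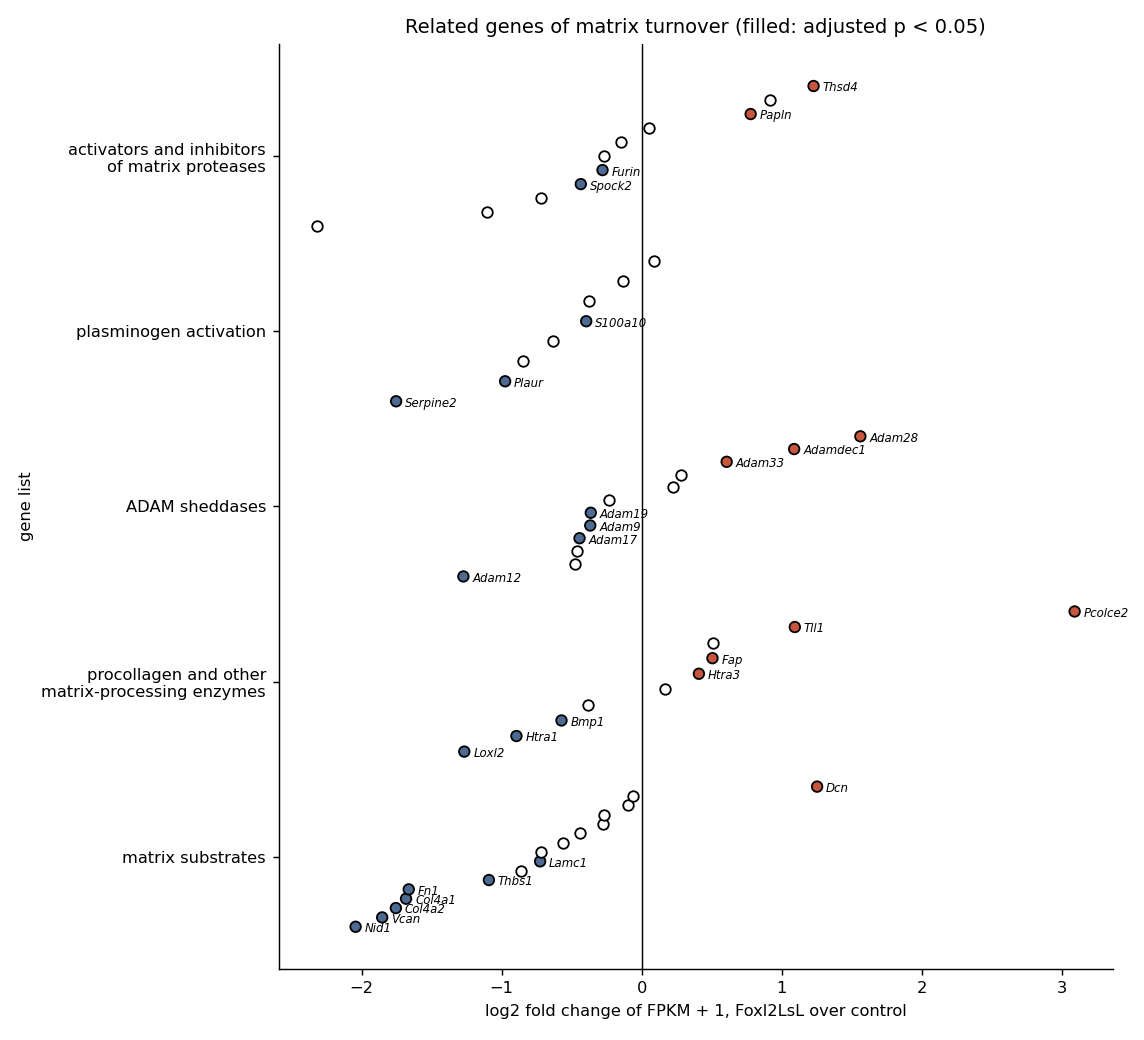
Log2 fold change of FPKM + 1 (Foxl2LsL over control, x axis) of the tested genes in 5 lists of related genes (y axis), with filled and named points where the limma adjusted p is under 0.05. Pcolce2 at 3.09 and Nid1 at -2.04 are the filled points farthest from 0 on each side.

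Neighbouring genes limit some of these values. Exons of 13 of the 51 genes overlap those of another gene in GENCODE M21, each on the opposite strand. Among genes that fell, Adamts9 shares 1381 bases with A730049H05Rik and 424 with Gm15737, Mmp19 shares 789 with Tmem198b and 212 with Gm47093, and Adamts7 shares 122 with Tbc1d2b. Without a stated use of strand, reads of these overlaps cannot be assigned to either gene.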

How the data were processed

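The authors deposited FPKM values for 7 libraries without pooling, in a table with the gene length in bases beside them, per the file headers. Per the labels, RNA was extracted with TRIzol. The submitters' processing notes name STAR 2.5.2b, featureCounts 1.5.0-p1, Subread, DESeq2 1.12.4 and mm10, with no role or order. Annotation, strand use and filters are not given in the sources used here. FPKM multiplied by length and by a library total gave whole fragments (within 0.1) for 100% of the low values used in every library. Each total was fitted to make these same values whole, so the 100% is no independent check. Replicates were not duplicates of one another. log2(FPKM + 1) was fitted with limma 3.58.1 (lmFit, eBayes with trend) in R 4.3.3, over genes whose mean over the 7 libraries reached 1 FPKM, plus Foxl2, with Benjamini-Hochberg adjustment and a threshold of 0.05. Alternatives were a pseudocount of 0.1, other filters and scalings, limma-voom on the recovered fragments, array weights, leaving out each library and a replicate block. Sequences came from GENCODE M21 and RefSeq, read in Python 3.11.15. Values in every library are given for genes past the threshold with an absolute log2 fold change of at least 1 and for a set list; in the related lists, up to 4 genes with the largest changes are named. The genes, lists and rules were chosen with earlier results of these data known.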

Additional observations from a re-analysis of the deposited data

Results flagged for a closer look

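In 3 of the 49 genes examined, 1 of the 4 Foxl2LsL libraries lay far from the other libraries of its group; chance flags about 1 in 20 such groups. Mmp11 was highest in Foxl2LsL library 2 with 29.6 FPKM, against 18.2 to 19.1 FPKM in the other three. Mmp12 was highest in Foxl2LsL library 1 with 0.054 FPKM, and Mmp21 was at 0.011 FPKM in Foxl2LsL library 2 and at 0 in the rest of the group. Mmp12 and Mmp21 are below the filter.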

How the results depend on the processing

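Of the 19 genes past the threshold, 13 passed in every alternative that tested them (18 alternatives, 1 of them, limma-voom without a filter, chosen after seeing the data) and 6 lost the call in at least 1: Timp1, Timp2, Adamts9, Adamts15, Mmp15 and Adamts14. With a mean FPKM of at least 5, where fewer genes are tested, 11 passed (3 higher, 8 lower). Leaving out 1 library gave 16 to 20 (5 to 6 higher, 10 to 15 lower), 3853 to 5328 of all genes, and 23 to 36 in the related lists. Deviations from the group means correlated at 0.23, -0.03 and -0.11 between libraries sharing the replicate number 1, 2 or 4. With so few libraries these values cannot decide whether the numbers pair them, and the labels do not say. The replicate block gave 3243 genes and 16 of the 51, and the same 6 libraries without it 3975 and 16. The block ended the calls of Mmp15 (-0.97) and Adamts14 (-1.01). Of genes past the threshold over all tested, 41.1% rose, and 52.3% by limma-voom. Signs reversed, never past the threshold and with the cause not tested, for Foxl2 with array weights (-0.15; -0.10 to 0.28 with 1 library left out), for Mmp7 with array weights (-0.018) and for Adamts5 after median centring (0.042), quantile normalization (0.045), limma-voom (0.091; 0.078 without a filter) and array weights (0.083). With 1 library left out, Mmp7 ranged from -0.65 to 0.57 and Mmp10 from -1.004 to 0.16. Adamts5 likewise ranged from -0.16 to 0.25 and Adamtsl4 from -0.38 to 0.17. Depth limits Mmp21, with 0 to 5 fragments.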
